A study of Mus musculus with 16 samples.

Results

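The endoplasmic reticulum (ER) is where proteins bound for secretion or for membranes enter the secretory pathway, fold and are passed on. Here 38 mouse genes of this system were followed in N25/2 cells after amino acids were withdrawn. They were listed by name for their roles and not by a cut on measured values, though with earlier results of these data known. 37 of them could be read from a row of the deposited table that names a single gene, out of 19938 such genes. For Sec61g, a small subunit of the translocation channel, the rows name several genes and were not used. Ero1l is given under its current symbol, Ero1a.

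Proteins enter the ER through the Sec61 channel, fold with the help of chaperones and disulfide-forming enzymes, and leave in vesicles with a COPII coat; those that fail to fold are sent back to the cytosol for degradation. When unfolded proteins build up, sensors in the ER membrane, among them Ern1 (IRE1alpha) and Atf6, start the unfolded protein response, which raises chaperone and degradation genes. A further sensor kinase, Eif2ak3 (PERK), phosphorylates eIF2alpha and so induces the transcription factor Atf4. The kinase that senses missing amino acids acts on the same eIF2alpha, so Atf4 and its target genes are common to both responses.

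N25/2 is a single immortalized line of embryonic mouse hypothalamic cells. Both groups were grown in DMEM with fetal bovine serum and antibiotics; control cells then went into medium with amino acids and deprived cells into medium lacking them. The labels do not say whether these 2 media held serum. Control and deprived cells were read on 4 arrays each at 5 h and on 1 array each at 1, 2, 3 and 16 h, so the other 4 times rest on single pairs of arrays. Nothing in the labels says that the 4 arrays of a group came from separate cultures; the p-values therefore cover the scatter of these arrays alone, and that scatter may be technical. Values are log2 levels from Affymetrix whole-transcript arrays, whose number limits the precision, and changes are deprived minus control in log2 units with the standard error (SE) of the limma fit and n = 4 arrays a group. In bulk RNA, fewer cells of a type and less RNA per cell cannot be told apart.

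The values carry no detection call, so levels of markers are given without saying that a gene was absent. Mean levels over the 16 arrays ran from 5.96 (Pax6) to 13.70 (Vim) in the 4 measured neural progenitor markers, from 5.20 (Dcx) to 12.25 (Stmn2) in 8 of neurons and from 6.55 (Pomc) to 8.23 (Otp) in 5 of the hypothalamus. In the 6 markers of fibroblasts they ran from 4.46 (Lum) to 12.03 (Col1a1), in 5 of astrocytes from 5.77 (S100b) to 11.74 (Slc1a3), in 3 of oligodendrocytes from 6.44 (Mog) to 7.24 (Mbp), in 5 of microglia from 5.51 (Ptprc) to 7.65 (Cx3cr1) and in 4 of endothelium from 5.72 (Kdr) to 6.51 (Cdh5). Of 40 markers of 8 cell types or regions, only Nes passed the test at 5 h (-0.69, SE 0.12). Both 5 h arrays numbered 4 stood apart from the others: control array 4 was the highest control for 26 of the 37 ER genes, and deprived array 4 the highest deprived array for 23. Over all 19938 genes these counts were 6602 and 6720. Control array 4 was the lowest control for 9488 of all genes and for 6 of the 37, so it was not high in general. The counts at 5 h are therefore also given without these 2 arrays and with the array number as a block. The block fit compares arrays of the same number, and the labels do not say that such arrays are pairs.

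After 5 h without amino acids the ER genes divided. The membrane sensors Ern1 and Atf6, the co-chaperone Dnajb9, the oxidase Ero1a and the degradation factors Herpud1 and Derl1 rose. The secreted factor Manf, the ubiquitin ligase Syvn1, the channel subunit Sec61b and the coat subunits Sec23b and Sec24d fell. The other 26 genes, among them the main chaperones Hspa5, Hsp90b1, Canx and Calr, did not pass an adjusted p of 0.05 in limma.

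The 6 genes that rose are 16.2% of the 37, where 2.41% of all genes tested rose, and the 5 that fell are 13.5%, where 1.70% of all genes fell. Over both directions 4.11% of all genes passed. Of the 37 genes 36 lay above the median level of all genes, where more genes pass. In a fit of the 9969 genes above that level, 7 ER genes were higher and 5 lower (5.34% and 4.26% of those genes). The median change of the 37 genes was -0.14, and 25 of them lay below 0. The median of all genes was -0.01, and 11043 of the 19938 lay below 0. With the array number as a block 7 ER genes were higher and 16 lower (of all genes 18.2% passed: 8.22% and 10.0% in these directions). Without both arrays numbered 4 there were 7 higher and 12 lower (of all genes 13.5% passed: 6.34% and 7.17%). The 11 genes above passed in the same direction in both of these fits. When 1 array of number 1, 2 or 3 was left out, in either group, 5 genes were higher and 2 or 3 lower (all genes: 1.25% to 1.65% and 0.662% to 1.05%). Intervals given below are those of single genes and are not adjusted for the number of genes.

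**Figure D1:**
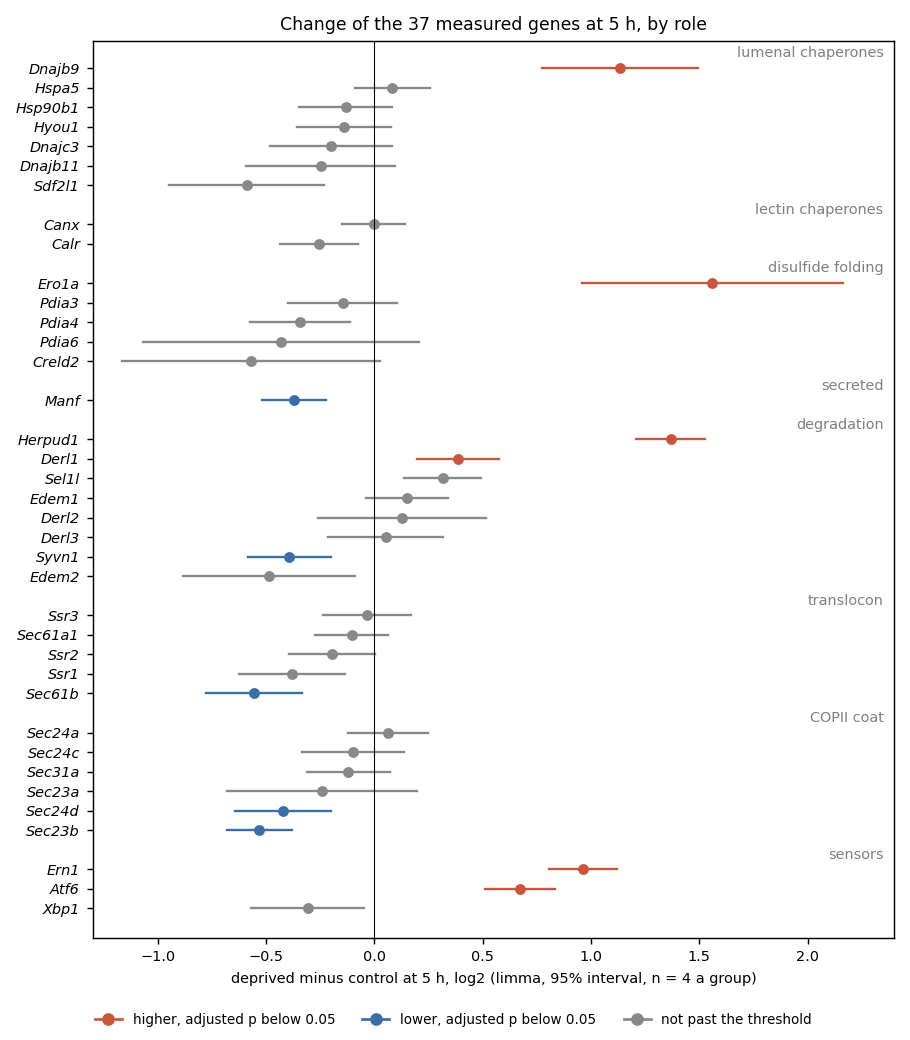
Change of each of the 37 measured ER genes at 5 h (x axis, deprived minus control in log2 units, point with 95% interval of the limma fit, 4 arrays a group), grouped by role; red marks genes past the threshold and higher, blue those past it and lower, grey the rest. The 6 red genes run from Derl1 at 0.38 to Ero1a at 1.56, and the 5 blue genes from Manf at -0.37 to Sec61b at -0.55.

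Several of these genes carry known stress-response motifs in their promoters, and the stretches around the matches are shown here for Herpud1, which rose, for Syvn1, which fell, and for chaperones and folding factors that did not pass the test. RefSeq promoter windows (build GRCm38.p6, 250 bases before to 50 after the gene start) were found for 31 of the 37 genes, not for Hyou1, Manf, Derl1, Sec61a1, Ssr2 and Atf6. 4 motifs were searched on both strands. The ER stress element, CCAAT and CCACG with 9 bases between them, is known for binding Atf6 together with the factor NF-Y. The ER stress element II, ATTGG and CCACG with 1 base between them, and the UPR element, TGACGTGG, are known targets of Atf6 and Xbp1, and both share the letters CCACG or their complement with the first motif. The C/EBP-ATF response element, TGATGNAA, is a site type bound by Atf4. Each stretch below runs 5′ to 3′ on the gene's strand with 20 bases on either side of the outermost matches, and capitals mark the matches.
Herpud1: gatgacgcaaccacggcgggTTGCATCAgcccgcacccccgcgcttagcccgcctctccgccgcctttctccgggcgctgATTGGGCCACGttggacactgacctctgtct
Hspa5: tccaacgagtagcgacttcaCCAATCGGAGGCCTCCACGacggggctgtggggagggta
Hsp90b1: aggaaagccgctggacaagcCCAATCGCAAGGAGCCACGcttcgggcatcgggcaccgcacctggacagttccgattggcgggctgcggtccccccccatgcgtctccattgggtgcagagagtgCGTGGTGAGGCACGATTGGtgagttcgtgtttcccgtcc
Calr: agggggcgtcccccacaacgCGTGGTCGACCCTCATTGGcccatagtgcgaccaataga
Pdia6: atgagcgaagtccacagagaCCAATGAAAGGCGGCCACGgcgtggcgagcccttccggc
Creld2: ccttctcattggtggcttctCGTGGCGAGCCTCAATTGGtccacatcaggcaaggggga
Syvn1: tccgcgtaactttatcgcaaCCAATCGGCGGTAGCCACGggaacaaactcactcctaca

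The Herpud1 stretch (chr8:94386297-94386407, plus strand) lies 132 to 22 bases before the start and holds a C/EBP-ATF response element on the opposite strand, followed by an ER stress element II. The others hold the ER stress element: Hspa5 (chr2:34772005-34772063, plus strand), Hsp90b1 with 2 matches (chr10:86705513-86705676, minus strand), Calr (chr8:84847055-84847113, minus strand), Pdia6 (chr12:17266471-17266529, plus strand), Creld2 (chr15:88819500-88819558, plus strand) and Syvn1 (chr19:6046512-6046570, plus strand). Canx, Derl3 and Dnajc3 hold it too, which makes 9 of 31 genes against 0.119% of the 32851 promoter windows of all genes. The element was chosen as a known motif of this stress response, so its higher share in these genes is no independent result. The ER genes were counted once each and the background by window. ER stress element II was found in Herpud1 and Dnajb11 (0.037% of all windows), the UPR element in Sec23a and Sec24d (0.676%), and the C/EBP-ATF response element in Herpud1 (3.969%). For Ero1a, Dnajb9 and Ern1, 3 of the genes that rose, none of the 4 motifs is in the window.

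The 9 genes with the ER stress element had differences from -0.57 (Creld2) to 0.08 (Hspa5) at 5 h, with a median of -0.20. In limma none of the 9 rose and Syvn1 fell (all genes: 2.41% and 1.70%). At an unadjusted p of 0.05, 0 were higher and 2 lower (all genes: 6.57% and 7.17%), and the block gave 0 higher and 4 lower (all genes: 8.22% and 10.0%). Of the 22 genes with a window but without the element 4 rose and 3 fell (all genes: 2.41% and 1.70%), with a median of -0.13. At the share of all genes, none rising is usual for a list of 9, and the 2 lists were not tested against each other. These counts describe the lists, and a match of letters does not show that a factor binds there.

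Of the 3 genes for sensors and their transcription factor, Ern1 and Atf6 rose and Xbp1 did not pass. Ern1 read 10.05, 9.97, 10.00 and 10.07 on control arrays 1 to 4 and 11.05, 10.89, 11.02 and 10.96 on deprived arrays 1 to 4. The 2 groups lay 1.95-fold apart (log2 0.96, SE 0.07, adjusted p = 0.000153 in limma), and the lowest deprived array was above every control. Ern1 is the kinase and endoribonuclease that splices Xbp1 mRNA. Atf6 read 10.76, 10.71, 10.73 and 10.73 on control arrays 1 to 4 and 11.44, 11.48, 11.42 and 11.27 on deprived arrays 1 to 4. Atf6, a membrane-bound factor that is cut in the Golgi to free its active part, rose 1.59-fold (log2 0.67, SE 0.07, adjusted p = 0.00101 in limma), again without overlap. Xbp1 read 11.59, 11.63, 11.55 and 11.45 on control arrays 1 to 4 and 11.43, 11.38, 11.27 and 10.90 on deprived arrays 1 to 4. Xbp1 codes for the transcription factor made from the spliced mRNA, and the spliced and unspliced forms are not separated here. All 4 deprived arrays lay below the controls, with deprived array 4 lowest, and the difference of -0.31 (SE 0.12) had an adjusted p = 0.247 in limma; it was 0.0119 under the block and 0.0535 with both arrays numbered 4 left out.

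Among 7 lumenal chaperones and co-chaperones only Dnajb9 passed. Dnajb9 read 9.56, 9.50, 9.14 and 9.01 on control arrays 1 to 4 and 10.60, 10.60, 10.50 and 10.06 on deprived arrays 1 to 4. Dnajb9 (ERdj4) is a J-domain partner of the chaperone BiP, and it rose 2.20-fold (log2 1.13, SE 0.16, adjusted p = 0.0043 in limma). Array 4 was the lowest in each group, and the groups did not overlap. Hspa5 read 12.50, 12.50, 12.45 and 12.46 on control arrays 1 to 4 and 12.67, 12.61, 12.54 and 12.41 on deprived arrays 1 to 4. Hspa5 is BiP itself, the central chaperone of the ER and the usual readout of its stress; its groups overlapped, and the difference was 0.08 (95% interval -0.09 to 0.25). Hsp90b1 read 12.46, 12.44, 12.35 and 12.59 on control arrays 1 to 4 and 12.26, 12.26, 12.24 and 12.56 on deprived arrays 1 to 4. This gene codes for GRP94, a chaperone of the HSP90 family; its groups overlapped too, and it differed by -0.13 (95% interval -0.35 to 0.08). Neither interval reached the lower bound of the interval of Dnajb9, 0.77.

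The other 4 of this class lay below 0. Sdf2l1 read 9.82, 9.89, 9.92 and 10.50 on control arrays 1 to 4 and 9.36, 9.37, 9.29 and 9.74 on deprived arrays 1 to 4. Sdf2l1, which works in a complex with the co-chaperone Dnajb11, did not overlap between the groups, with array 4 highest in both. Its difference of -0.59 (SE 0.16) did not pass in limma (adjusted p = 0.0855) but did under the block (0.000141) and with both arrays numbered 4 left out (0.000347). Dnajb11 read 9.60, 9.43, 9.35 and 9.97 on control arrays 1 to 4 and 9.34, 9.15, 9.22 and 9.66 on deprived arrays 1 to 4. Dnajb11 (ERdj3) had its 2 highest values on the arrays numbered 4 and differed by -0.25 (SE 0.15). Dnajc3 (p58IPK, an inhibitor of PERK) differed by -0.20 (SE 0.13) and Hyou1, the nucleotide exchange factor of BiP, by -0.14 (SE 0.10). With the block Dnajb11 passed as lower as well (adjusted p = 0.0162 in limma).

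The 2 lectin chaperones bind glycoproteins during folding. Canx, the membrane-bound one, differed by -0.0035 (95% interval -0.15 to 0.14), the smallest difference of the 37 genes. Calr read 12.80, 12.77, 12.75 and 12.88 on control arrays 1 to 4 and 12.47, 12.48, 12.53 and 12.71 on deprived arrays 1 to 4. Calr, its soluble counterpart, was lower on every deprived array than on any control, with a difference of -0.26 (SE 0.08); the adjusted p in limma was 0.14, against 0.0125 under the block and 0.0123 with both arrays numbered 4 left out.

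Among 5 genes of disulfide folding, Ero1a alone passed, and the isomerases Pdia3, Pdia4 and Pdia6 did not. Ero1a read 11.16, 10.91, 10.88 and 9.87 on control arrays 1 to 4 and 12.46, 12.45, 12.39 and 11.77 on deprived arrays 1 to 4. Ero1a reoxidizes protein disulfide isomerase and hands the electrons to oxygen. It rose 2.95-fold (log2 1.56, SE 0.27, adjusted p = 0.0114 in limma), the largest change of the 37 genes, and array 4 was lowest in both groups. Without both arrays numbered 4 its change was 1.45.

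The isomerases lay on the other side of 0. Pdia4 read 11.92, 11.82, 11.88 and 12.21 on control arrays 1 to 4 and 11.53, 11.56, 11.57 and 11.78 on deprived arrays 1 to 4. Pdia4 (ERp72) was lower on all 4 deprived arrays than on any control, with a difference of -0.34 (SE 0.10), and missed the threshold (adjusted p = 0.12 in limma; 0.00238 with the block). A second row for Pdia4, not used above, differed by -0.12. Pdia6 read 9.64, 9.63, 9.51 and 10.58 on control arrays 1 to 4 and 9.13, 9.13, 9.23 and 10.15 on deprived arrays 1 to 4. Pdia6 (P5) was about 1 log2 unit higher on array 4 than on the other arrays of its group, so that the groups overlapped while each deprived array lay below the control of its number.

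The difference of Pdia6 was -0.43 (SE 0.28, adjusted p = 0.68 in limma), and 0.000811 with the block or 0.00194 when both arrays numbered 4 were left out. Creld2 read 10.49, 10.60, 10.61 and 11.47 on control arrays 1 to 4 and 10.00, 9.93, 10.03 and 10.93 on deprived arrays 1 to 4. Creld2, an ER-stress-inducible protein with EGF-like domains, was likewise high on array 4 of both groups. It differed by -0.57 (SE 0.27, adjusted p = 0.398 in limma; 9.6e-05 with the block). Pdia3 (ERp57), the partner of the lectin chaperones, differed by -0.15 (SE 0.11) and passed neither with nor without the block.

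The 8 genes of ER-associated degradation went both ways. Herpud1 read 10.48, 10.39, 10.32 and 10.43 on control arrays 1 to 4 and 11.75, 11.83, 11.72 and 11.78 on deprived arrays 1 to 4. Herpud1, which organizes the ubiquitin ligase complex in the ER membrane, rose 2.58-fold (log2 1.37, SE 0.07, adjusted p = 1.87e-05 in limma). The 4 arrays of a group lay within 0.15 log2 units in control and 0.12 in deprived cells, array 4 included. Derl1 read 10.43, 10.52, 10.55 and 10.55 on control arrays 1 to 4 and 10.77, 10.85, 10.90 and 11.08 on deprived arrays 1 to 4. Derl1, a rhomboid-like membrane protein of the export channel, rose 1.31-fold (log2 0.38, SE 0.08, adjusted p = 0.0341 in limma).

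The ligase of that complex fell. Syvn1 read 10.41, 10.36, 10.48 and 10.36 on control arrays 1 to 4 and 10.21, 9.97, 9.93 and 9.92 on deprived arrays 1 to 4. Syvn1 (Hrd1) was lower on all deprived arrays, with a change of -0.39 (SE 0.09, adjusted p = 0.0339 in limma). Sel1l read 10.66, 10.52, 10.54 and 10.78 on control arrays 1 to 4 and 10.96, 10.93, 10.94 and 10.94 on deprived arrays 1 to 4. Sel1l, the adaptor that stabilizes Syvn1, was higher on every deprived array by 0.32 (SE 0.08) and came short of the threshold (adjusted p = 0.062 in limma), passing under the block (0.00611) and with both arrays numbered 4 left out (0.00389).

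Edem1 and Edem2 mark misfolded glycoproteins for this route. Edem1 differed by 0.15 (95% interval -0.04 to 0.34) and Edem2 by -0.48 (95% interval -0.88 to -0.09). Edem2 read 9.25, 9.06, 9.01 and 9.72 on control arrays 1 to 4 and 8.72, 8.66, 8.56 and 9.17 on deprived arrays 1 to 4. Array 4 was the highest of each group, and each deprived array lay below the control of its number. Edem2 passed as lower with the block (adjusted p = 0.000267 in limma; 0.223 without the block). Derl2 and Derl3, relatives of Derl1, differed by 0.13 (SE 0.17) and 0.05 (SE 0.12). The calls of Derl1 and Syvn1 were near the threshold: without control array 1, 2 or 3, or without deprived array 2 or 3, neither passed, nor did they with unnamed and multi-symbol rows included (0.0583 and 0.0582), and with arrays left out the adjusted p rose to at most 0.115 and 0.125 in limma.

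Manf, a small secreted protein of the ER lumen with neurotrophic activity, fell. Manf read 9.41, 9.50, 9.47 and 9.50 on control arrays 1 to 4 and 9.10, 9.12, 9.09 and 9.09 on deprived arrays 1 to 4. The change was -0.37 (SE 0.07, adjusted p = 0.0127 in limma), and the groups did not overlap. It was lost without control array 2 or deprived array 1 or 3 (adjusted p at most 0.0609).

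None of the 5 measured genes of the translocation site lay above 0. Sec61b read 9.94, 9.90, 9.79 and 10.16 on control arrays 1 to 4 and 9.36, 9.25, 9.46 and 9.51 on deprived arrays 1 to 4. Sec61b, the beta subunit of the channel, fell by 0.55 (SE 0.10, adjusted p = 0.0133 in limma). Its other 2 rows gave -0.44 and -0.42. The call ended without deprived array 1 or 2 (adjusted p at most 0.0581). Ssr1 read 12.24, 12.20, 12.20 and 12.57 on control arrays 1 to 4 and 11.90, 11.75, 11.93 and 12.10 on deprived arrays 1 to 4. Ssr1, a subunit of the translocon-associated complex beside the channel, did not overlap between the groups, with a difference of -0.38 (SE 0.11, adjusted p = 0.107 in limma; 0.00153 with the block).

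Ssr2 and Ssr3 of the same complex differed by -0.20 (SE 0.09) and -0.03 (SE 0.09), and Ssr2 passed as lower with the block (adjusted p = 0.0423 in limma). Sec61a1, which forms the pore, differed by -0.10 (95% interval -0.27 to 0.06).

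Of 6 subunits of the COPII coat, which buds vesicles from the ER, Sec23b and Sec24d fell. Sec23b read 10.69, 10.60, 10.61 and 10.67 on control arrays 1 to 4 and 10.14, 10.12, 10.12 and 10.06 on deprived arrays 1 to 4. Sec23b, the inner-coat subunit that activates the GTPase Sar1, fell by 0.53 (SE 0.07, adjusted p = 0.00213 in limma), with 0.09 and 0.07 log2 units between the highest and lowest array of a group. Sec24d read 10.54, 10.66, 10.66 and 10.93 on control arrays 1 to 4 and 10.26, 10.15, 10.37 and 10.33 on deprived arrays 1 to 4. Sec24d, a cargo-binding subunit, fell by 0.42 (SE 0.10, adjusted p = 0.0445 in limma).

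The close relatives of both genes had smaller differences. Sec23a read 10.27, 10.20, 10.21 and 11.00 on control arrays 1 to 4 and 10.00, 10.02, 10.11 and 10.56 on deprived arrays 1 to 4. Sec23a, the paralogue of Sec23b, differed by -0.24 (SE 0.20) with control array 4 far above the other controls, and passed as lower with the block (adjusted p = 0.0326 in limma). Sec24a and Sec24c differed by 0.06 (95% interval -0.12 to 0.25) and -0.10 (95% interval -0.34 to 0.14), and Sec31a of the outer coat by -0.12 (95% interval -0.31 to 0.07). Differences between paralogues were not tested. The call of Sec24d was lost with any single array other than control array 4 left out (adjusted p at most 0.147 in limma) and when each array was centred on its median (0.0693) or unnamed and multi-symbol rows were included (0.0771).

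**Figure D2:**
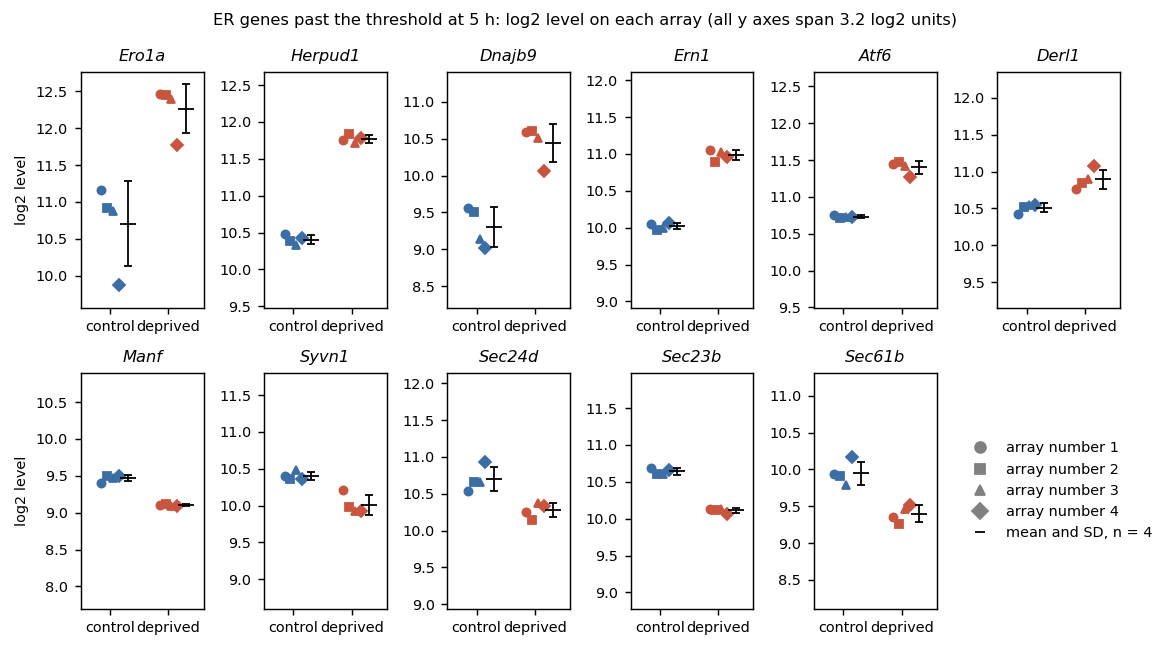
Log2 level (y axis, each spanning the same number of log2 units) of the 11 ER genes past the threshold at 5 h on each control (blue) and deprived (red) array; symbols give the array number, and the black bar is the mean with SD, n = 4. In all 11 panels the groups do not overlap, and array 4 lies low in both groups for Ero1a and Dnajb9.

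Over all 37 genes, 7 lay higher on every deprived array than on any control (5.15% of all genes did) and 10 lower (5.38%). Beyond the 11 genes past the threshold these were Sel1l on the higher side and Sdf2l1, Calr, Pdia4, Ssr1 and Xbp1 on the lower side.

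The position of the arrays numbered 4 differed from gene to gene in this set and ran alike in both groups. Against the mean of arrays 1 to 3, control array 4 was higher by 0.99 for Pdia6, 0.91 for Creld2 and 0.78 for Sec23a. Deprived array 4 was higher by 0.99, 0.94 and 0.51 for the same genes. For Ero1a both arrays were low, with -1.12 in control and -0.66 in deprived cells, and for Dnajb9 the values were -0.39 and -0.51. The median over the 37 genes was 0.18 in control and 0.17 in deprived cells, against -0.08 and -0.09 over all genes. Herpud1, Ern1, Sec23b and Manf, by contrast, deviated by at most 0.06 on either array.

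**Figure D3:**
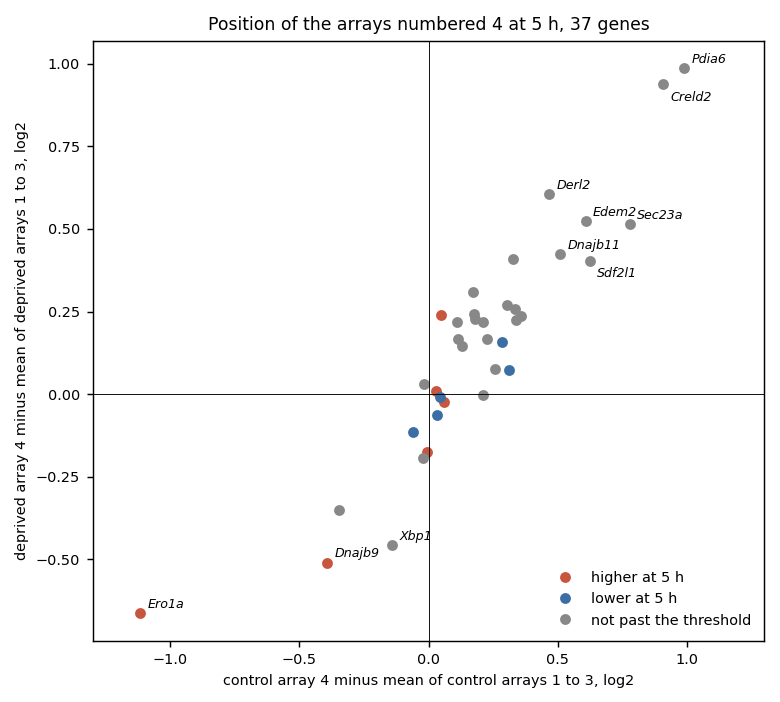
Each point is 1 of the 37 ER genes at 5 h: control array 4 minus the mean of control arrays 1 to 3 (x axis, log2) against the same for deprived cells (y axis, log2), coloured by the call at 5 h. Pdia6 and Creld2 lie near 1 on both axes and Ero1a at -1.12 and -0.66.

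The other times have 1 array a group, so the order in which the genes parted was not tested. For Herpud1 the difference of 0.60 at 1 h was the largest of the 37 genes, and it stood at 1.12, 1.07 and 0.98 at 2, 3 and 16 h. Its deprived level was 11.16, 11.65 and 12.10 at 1, 2 and 3 h and 11.51 at 16 h, while control cells read 10.56, 10.52, 11.03 and 10.53. The 3 h arrays were thus the highest single arrays in both media.

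Dnajb9 had differences of 0.25, 0.91, 0.63 and 1.44 at 1, 2, 3 and 16 h. That of 1 h was smaller than the range of Dnajb9 within a group at 5 h (0.55 in control and 0.54 in deprived cells). At 16 h its deprived level, 10.21, was below that at 2 h (10.72), and the control level was 8.77 against 9.81 at 2 h. The larger late difference thus came with a lower control array. The differences of Ero1a were -0.0031, 0.37, 0.60 and 1.72 in the same order; its deprived level was 11.48 at 1 h and 12.58 at 16 h, and its control level 11.48 and 10.86.

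The sensors differed little at first. Values for Ern1 were 0.03, 0.11 and 0.38 at 1, 2 and 3 h, then 1.17 at 16 h, with controls between 9.90 and 10.17 throughout. Atf6 differed by 0.0045, 0.12 and 0.01 at 1, 2 and 3 h and by 1.22 at 16 h, with a control level of 11.16 at 1 h and 10.66 at 16 h and a deprived level of 11.16 and 11.89. Xbp1 was at 11.66 on the control and 10.73 on the deprived array of 16 h, a difference of -0.93, after -0.02, 0.10 and -0.04 at 1, 2 and 3 h.

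**Figure D4:**
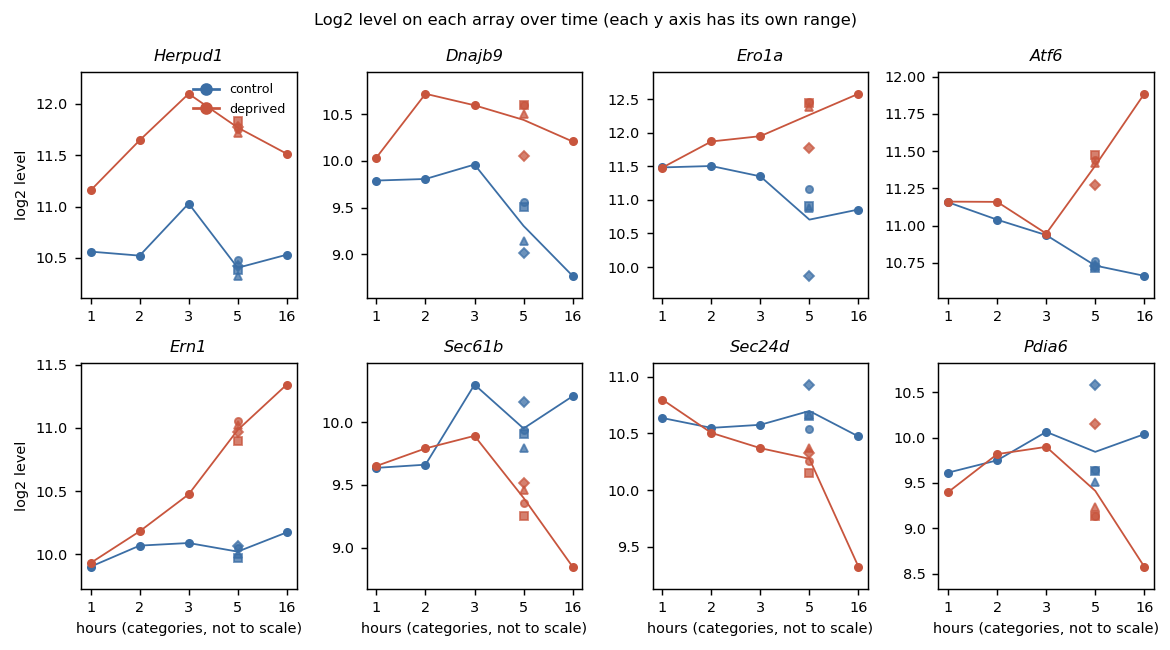
Log2 level (y axis, own range in each panel) of 8 ER genes on every control (blue) and deprived (red) array by hours in medium (x axis, categories not to scale); lines join single arrays, and at 5 h the mean of 4. Deprived and control lines of Herpud1 are apart from 1 h, where it differed by 0.60, those of Ern1 and Atf6 mainly at 5 and 16 h, and Sec61b, Sec24d and Pdia6 are lowest on the deprived array of 16 h.

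Large single-array differences were seen mainly at 16 h. Counting differences of at least 1 log2 unit, none of the 37 genes was past it in either direction at 1 h (all genes: 0.0201% higher and 0.105% lower), and Herpud1 alone was at 2 h and 3 h, as higher (all genes: 0.0602% and 0.0903% higher, 0.120% and 0.0451% lower). At 16 h 4 genes, 10.8% of the 37, were higher by that much (all genes: 1.96%): Ero1a, Dnajb9, Atf6 and Ern1. Another 4 were at least 1 lower (all genes: 2.97%): Pdia6 at -1.46, Sec61b at -1.36, Sec24d at -1.15 and Sdf2l1 at -1.12.

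The deprived array of 16 h read 8.85 for Sec61b against 10.21 in control, 9.33 against 10.47 for Sec24d and 8.58 against 10.04 for Pdia6. The chaperones Calr, Hsp90b1 and Dnajb11 differed by -0.67, -0.57 and -0.62 at 16 h, and Pdia4 and Pdia3 by -0.67 and -0.55. Hspa5 went from -0.25 at 1 h to 0.37 at 16 h, with 12.73 on the deprived array, its highest of the 16. Sec23b, which fell at 5 h, differed by -0.13 at 16 h, and Syvn1 by -0.21. All 11 genes past the threshold at 5 h had the same sign at 16 h, on 1 pair of arrays. How often other genes past the threshold at 5 h kept their sign was not counted.

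Medians over the 37 genes were -0.05, 0.0083, -0.12 and -0.22 at 1, 2, 3 and 16 h, against 0.01, -0.0061, 0.02 and -0.04 for all genes. At 3 h 29 of the 37 genes lay below 0, beside 9113 of all 19938 genes. Dnajb9, Herpud1, Derl1, Atf6 and Ern1 were above 0 at each of these 4 times. The 11 genes below 0 at all 4 were Hyou1, Dnajc3, Sdf2l1, Calr, Pdia3, Pdia4, Creld2, Edem2, Ssr1, Ssr2 and Sec23b. How many of all genes kept the same sign at these 4 times was not counted.

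Limma's test of the mean difference over 1, 2, 3 and 16 h, with time as a factor, passed none of the 19938 genes (background 0%). At an unadjusted p of 0.05 it passed 1244 genes (6.24%), 7 of them ER genes: Herpud1, Dnajb9, Ero1a, Pdia4, Creld2, Edem2 and Ssr1. Herpud1 stood at a mean of 0.94 (SE 0.10, adjusted p = 0.466). Without the 16 h arrays its mean over 1, 2 and 3 h was 0.93 (adjusted p = 0.0259 in limma); no other ER gene was called there, and 35 of all genes were (0.176%). Without 1, 2 or 3 h no gene was called, and the lowest adjusted p of an ER gene was 0.363, 0.983 and 0.896 in limma.

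**Figure D5:**
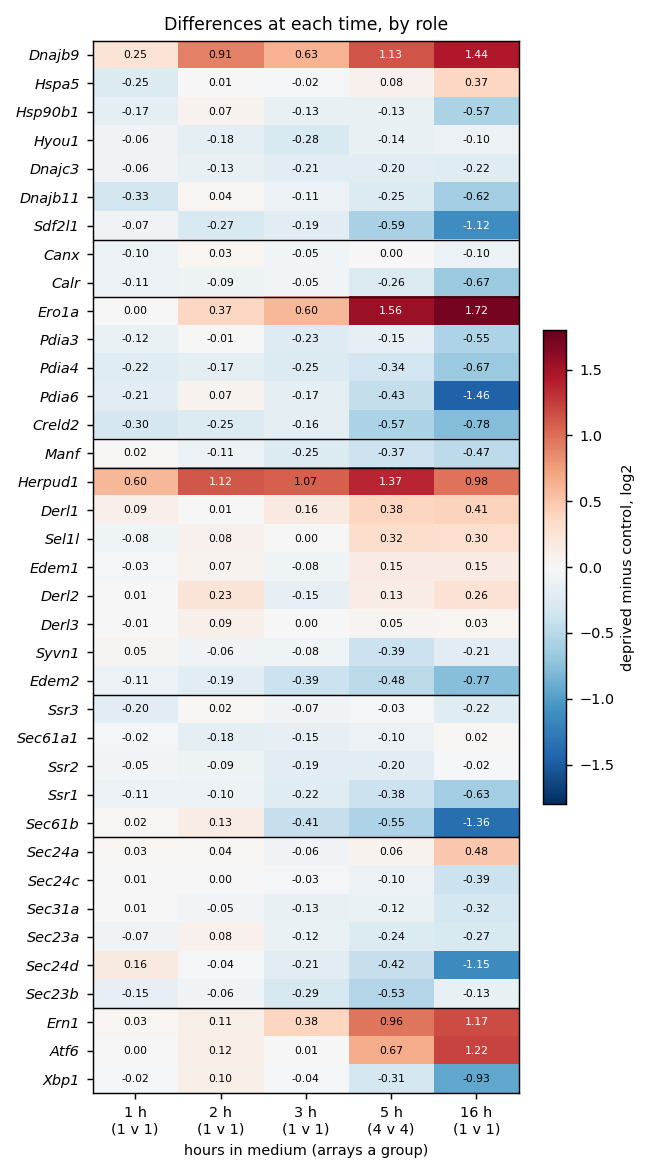
Deprived minus control (log2, colour and printed value) for each of the 37 ER genes (rows, ordered by role and then by the change at 5 h) at 1, 2, 3, 5 and 16 h (columns; 4 arrays a group at 5 h, 1 at the other times). Herpud1 is red in all 5 columns, and the 16 h column holds the deepest colours of both signs, from -1.46 for Pdia6 to 1.72 for Ero1a.

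The rest of the pathway was read from lists of other genes with the same roles, in the same 5 h fit. These lists too were drawn up with earlier results of these data known. All 14 genes of the arm that runs through Atf4 rose (median 1.52), where 2.41% of all genes rose. Atf4 itself rose by 0.95 (SE 0.08), Ddit3, which codes for CHOP, by 1.77 (SE 0.14), Trib3, a pseudokinase, by 2.52 (SE 0.12), Chac1, a glutathione-degrading enzyme, by 2.12 (SE 0.10), Sesn2, a leucine sensor, by 1.85 (SE 0.13) and Atf3, a stress-induced factor, by 1.84 (SE 0.21). On the single arrays of 1 h the 14 genes had a median difference of 0.08, with 11 above and 3 below 0 (all genes: 10563 above and 9373 below). They ran from -0.26 (Atf3) to 0.77 (Sesn2), beside 0.60 for Herpud1 and 0.03 for Ern1.

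Past the threshold in the other ER lists were Ostc, Marchf6, Preb, Atf6b and Creb3l2. Of 23 further folding genes none passed in limma (median -0.09). At an unadjusted p of 0.05, 0 were higher and 1 lower (all genes: 6.57% and 7.17%), and the block gave 0 higher and 6 lower (all genes: 8.22% and 10.0%). Of 27 genes of ER entry and glycosylation Ostc, a subunit of the oligosaccharyltransferase, fell (-0.53, SE 0.09; list median -0.11). Of 17 further degradation genes Marchf6, a membrane ubiquitin ligase, rose (0.34, SE 0.08; median 0.02). Of 26 genes of ER exit and ER-Golgi traffic Preb, the exchange factor that loads Sar1, fell (-0.35, SE 0.07; median -0.07).

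Of 9 further sensors and ER-bound transcription factors Atf6b, the paralogue of Atf6, and Creb3l2, a factor for secretory pathway genes, fell, by 0.45 (SE 0.10) and 0.44 (SE 0.08). Atf6 rose while Atf6b fell, and at 16 h they differed by 1.22 and -0.27. Creb3l2 differed by -1.49 at 16 h. Over these 5 lists, without the Atf4 arm, 1 of 102 genes rose and 4 fell (all genes: 2.41% and 1.70%, in total 4.11%), with a median of -0.07. The block gave 4 higher and 21 lower (all genes: 8.22% and 10.0%). The median level of these 102 genes was 10.44, against 7.47 over all genes. In the separate fit of genes above the median level, 5.34% of genes were higher and 4.26% lower. The 102 genes were not counted in that fit, so their 1 and 4 cannot be set against these shares.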

How the data were processed

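Per the labels' protocols, amplified biotinylated cDNA from each sample's total RNA was run on 1 Affymetrix whole-transcript array. RMA, named with limma in the submitters' processing notes, gave the deposited log2 table; versions, settings and array batches are not given in the sources used here. It has 35556 rows and 16 columns, with values from 3.07 to 14.2 and array medians of 7.02 to 7.12. No columns were identical.

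Rows with a single symbol in the platform annotation (21789) were named, with symbols updated through Entrez identifiers in a RefSeq gene table (GRCm38.p6). Of several rows for a gene the one with the highest mean was kept, which gave 19938 genes. Groups at 5 h were tested two-sided in limma (version 3.58.1, R version 4.3.3; lmFit, eBayes), with Benjamini-Hochberg adjustment over all genes and a threshold of 0.05. The other times were compared as differences of single arrays and, for their mean, in limma with time as a factor. Fits were checked on simulated data with independent noise. Those data held no shift of the arrays numbered 4, so the check does not cover that feature. Motif searches and plots used Python 3.11.15 and matplotlib 3.10.9. Promoter windows came from RefSeq. Protein sequences were not used here.

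The genes and lists were chosen with earlier results of these data known. All 38 listed ER genes were described, with up to 4 genes past the threshold from each further list by size of change, and Atf4, Ddit3, Trib3 and Chac1 always. Both 5 h groups carry the numbers 1 to 4. Deviations from the group means correlated between same-numbered arrays with 0.354, 0.584, 0.467 and 0.896, all above 0.1. The number was therefore also used as a block. Arrays 1 to 3 correlated across numbers as well, with 0.133 to 0.68, the highest for control array 3 with deprived array 2. Array 4 of either group correlated with arrays 1 to 3 of the other at -0.745 to -0.338. The check thus sets the arrays numbered 4 apart and does not show that numbers 1 to 3 mark pairs. Alternatives were the block, other normalizations, filters, row rules, variance priors, array weights, and arrays or times left out.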

Additional observations from a re-analysis of the deposited data

Results flagged for a closer look

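In 18 of 74 comparisons of an array with the other 3 of its 5 h group, 1 for each of the 37 ER genes in each group, a single array lay far from the rest. Of the 18, 17 were arrays numbered 4. Chance gives about 5 percent of groups when each is drawn on its own, but the 37 genes were read on the same arrays. The share over all genes was not counted, so the excess is not shown to be particular to ER genes. Control array 4 was far above the other controls for Sdf2l1 (10.50 against 9.82 to 9.92), Pdia6 (10.58 against 9.51 to 9.64), Creld2 (11.47 against 10.49 to 10.61), Edem1 (11.23 against 10.99 to 11.01), Ssr1 (12.57 against 12.20 to 12.24) and Sec23a (11.00 against 10.20 to 10.27). Deprived array 4 was far above the other deprived arrays for Hsp90b1 (12.56 against 12.24 to 12.26), Dnajc3 (10.20 against 9.75 to 9.82), Sdf2l1 (9.74 against 9.29 to 9.37), Pdia4 (11.78 against 11.53 to 11.57), Pdia6 (10.15 against 9.13 to 9.23), Creld2 (10.93 against 9.93 to 10.03), Edem1 (11.33 against 11.15 to 11.18), Derl2 (10.39 against 9.75 to 9.85) and Ssr3 (11.84 against 11.59 to 11.62). Array 4 was far below the others for Ero1a in deprived cells (11.77 against 12.39 to 12.46) and for Derl3 in control cells (6.24 against 6.56 to 6.60). The remaining one was control array 1 for Canx (13.06 against 13.02 on each of the other 3 controls).

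A few genes that changed at 5 h, with no overlap between the groups, had a difference of the opposite sign on the single arrays of an earlier time, and these reversals were not tested. At 1 h they were Ero1a (-0.0031), Manf (0.02), Syvn1 (0.05), Sec61b (0.02) and Sec24d (0.16), and at 2 h Sec61b (0.13). All but that of Sec24d and of Sec61b at 2 h were within 0.05 log2 units of 0.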

How the results depend on the processing

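At 5 h the counts of ER genes past the threshold were 6 higher and 5 lower. The lower count was 16 with the replicate block (all genes: 1993 of 19938, against 339), 17 with array weights (all genes: 2875), 3 with unnamed and multi-symbol rows included (all genes: 241; Syvn1 and Sec24d were lost, and Derl1 on the higher side), and 12 without both arrays numbered 4 (all genes: 1430). With single arrays left out it was 2 to 5, the higher count 5 to 7 and the median change -0.20 to -0.072. Ero1a, Dnajb9, Herpud1, Ern1, Atf6 and Sec23b passed under all 17 alternatives at 5 h. Only with array weights did Hsp90b1 (adjusted p = 0.0131 in limma), Dnajc3 (0.00139) and Pdia3 (0.0168) pass as lower. Edem1 passed as higher under the same setting alone (0.0147 in limma). Of the single genes at 5 h, 28 alternative values lost and 40 gained the threshold, and none past it in either fit changed sign. In the test over 1, 2, 3 and 16 h, 1 ER gene was higher without 16 h, where 35 of 19938 genes were called, against 0. The median at 3 h was -0.087 with quantile normalization, and that at 16 h -0.27 with quantile normalization and -0.13 with arrays centred on their medians, against -0.12 and -0.22. Among the other lists, the block gave 6 of 23 folding genes lower and, of 27 entry genes, 1 higher and 4 lower. Of 17 degradation genes it gave 3 higher and 2 lower, and of 26 exit genes 6 lower (all genes: 8.22% higher and 10.0% lower). Without both arrays numbered 4 these were 5 lower folding, 2 lower entry, 2 higher and 2 lower degradation and 3 lower exit genes (all genes: 6.34% and 7.17%). Quantile normalization gave 4 lower exit genes (all genes: 2.77% lower). The cause of these shifts was not tested. For the 37 genes the block changed no call beyond those given beside them. The number of arrays, not depth, limits the precision, and in the single-array comparisons no spread was measured.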
